A study of Rattus norvegicus with 40 samples.

Results

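Glucose handling by the proximal tubule was followed through 7 genes: Slc5a1, Slc5a2, Slc2a2, Pck1, Fbp1, G6pc and Hnf4a. The members were taken by gene symbol from every table, and 6 of 7 had a gene model among the 31677 gene models of each table, with G6pc the exception. The study sequenced RNA of T cells taken from blood and from kidney in the Dahl salt-sensitive (SS) strain, in which dietary salt raises blood pressure. There were 40 libraries, each of a pool of 3 rats, in 10 groups of 4. The rat types were SS/MCW and SS/CRL, 5 combinations of type, chow and age in all. The SS/MCW rats were sampled on low-salt chow (LS) at 7 weeks of age, on LS at 10 weeks, and on high-salt chow (HS) for 3 weeks at 10 weeks. The SS/CRL rats were sampled at 10 weeks, on LS or on HS for 3 weeks. Expression is the authors' FPKM, which scales reads by gene length and library total, with 1 value per group. No spread among the 4 libraries of a group can therefore be given, and the depth of the libraries is unknown. The words rose, fell and called are kept for genes with a Cuffdiff q under 0.05 in the table the authors deposited.

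As background, nearly all filtered glucose is taken back by the proximal tubule. Slc5a2 encodes SGLT2, the high-capacity sodium-glucose cotransporter on the apical side of the early segments, and Slc5a1 encodes SGLT1, the high-affinity cotransporter of the late segment. Slc2a2 encodes GLUT2, through which glucose leaves on the basolateral side. The same cells make glucose from lactate and glutamine: Pck1 encodes cytosolic phosphoenolpyruvate carboxykinase, Fbp1 fructose-1,6-bisphosphatase and G6pc the glucose-6-phosphatase of the last step. Hnf4a encodes a nuclear receptor that acts on many tubule and liver genes.

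The libraries labelled kidney T cells carried tubule RNA beside T cell RNA. Summed over 10 T cell markers, expression lay between 220.2 and 817 FPKM in the kidney groups and between 3795 and 4825 FPKM in the circulating groups. Summed over 9 matched proximal tubule markers that are not members, it lay between 2524 and 10791 FPKM in the kidney groups and did not exceed 0.777 FPKM in the circulating groups. None of these T cell or proximal tubule markers was at 0 in any kidney group, and Lrp2, a further proximal tubule marker, was not matched. In such bulk samples, fewer cells of a type and less RNA per cell cannot be told apart. Alb, a hepatocyte marker, was at 1.90, 21.6 and 33.5 FPKM in the SS/MCW LS 7-week, LS 10-week and HS kidney groups, and at 0.0653 and 0.0715 FPKM in the SS/CRL LS and HS groups. Apoa2, the other matched hepatocyte marker, was at 0 FPKM in both SS/MCW LS groups and at 6.15 FPKM in SS/MCW HS. In SS/CRL it was at 0 FPKM on LS and 0.878 FPKM on HS. Neither Alb nor Apoa2 was called in any comparison of kidney groups. Hepatocytes express several of the members as well, and the part of such RNA in the results was not tested.

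By their listed symbols, the promoters of 6 of the 7 members were found in the RefSeq table for build GRCr8, with 7 start sites, since Hnf4a has 2. G6pc, named G6pc1 there, was not looked up under that name. Each window held the 250 bases before the start. The windows were searched on both strands for 2 short sequences: ACGTCA, the core of the cyclic AMP response element, and AAAGTCCA, a site for HNF4. Of 33469 rat promoter windows, 6.95% and 1.19% held them. Windows of Pck1 and Slc5a2 are shown because these genes led the results below, and because the first holds a match and the second holds none. Capitals mark the match. The Pck1 window lies at chr3:182348322-182348571 and the Slc5a2 window at chr1:192277371-192277620, both on the plus strand.
Pck1: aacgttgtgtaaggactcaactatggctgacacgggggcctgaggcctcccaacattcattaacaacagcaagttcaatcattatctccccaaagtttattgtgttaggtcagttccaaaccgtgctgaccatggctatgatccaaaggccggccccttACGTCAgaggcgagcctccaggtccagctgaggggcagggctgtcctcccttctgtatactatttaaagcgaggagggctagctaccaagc
Slc5a2: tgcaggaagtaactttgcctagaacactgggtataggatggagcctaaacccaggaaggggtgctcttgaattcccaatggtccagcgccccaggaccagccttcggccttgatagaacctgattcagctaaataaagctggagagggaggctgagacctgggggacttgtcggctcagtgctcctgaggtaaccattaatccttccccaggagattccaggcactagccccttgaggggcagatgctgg

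In the Pck1 window ACGTCA lies from base 91 to base 86 before the start. No match of either sequence was found in the windows of Slc5a1, Slc5a2, Slc2a2, Fbp1 or either Hnf4a start. A match describes the letters in the window and is no measurement of binding.

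FPKM was higher in kidney than in blood for each of the 6 members in each of the 5 tissue comparisons, and the members called were not the same in each. In the 5 circulating tables the highest value of any member was 0.0976 FPKM, and none of the 30 member entries had enough reads for the authors to test. Set side by side with the kidney group of the same rat type, chow and age, Slc5a2 ranged from 0.0288 to 0.0983 FPKM in blood and from 6.99 to 58.0 FPKM in kidney. It was called higher in kidney in 5 of 5 comparisons, with q between 0.000279 and 0.00466 in the authors' deposited tables. Fbp1 was called in 4 of 5, Slc2a2 in 3, and Pck1 and Hnf4a in 2 each. All calls of Slc2a2 and Hnf4a were in comparisons whose circulating group was listed at 0 FPKM for that gene. Slc5a1, the least expressed member in SS/CRL kidneys, was called in none, with 81.9-fold to 625-fold higher values in kidney and q between 0.0882 and 0.301.

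Size and call did not go together in these tables. Hnf4a in SS/CRL rats on LS was at 0.00264 FPKM in circulating cells and 606 FPKM in kidney cells, with q = 0.30 in the authors' deposited table. In SS/MCW rats at 7 weeks it was listed at 0 against 111 FPKM and called, with q = 0.000141. The members called were 3 of 6 in SS/MCW LS at 7 weeks, where 32.9% of all tested gene models were called higher in kidney, and 3 of 6 in SS/MCW LS at 10 weeks, where 26.6% were. They were 3 of 6 in SS/MCW HS, 4 of 6 in SS/CRL LS and 3 of 6 in SS/CRL HS, where 30.6%, 31.5% and 30.6% of all tested gene models were called higher. With a normal p computed from the deposited test statistic in place of the authors' p, the members called in these comparisons became 1, 0, 1, 2 and 4. They were not all members that the authors' p had called. Slc5a1, called in none by the authors' q, was among them in each comparison but SS/MCW LS at 10 weeks, and Slc5a2 was in none.

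Levels in the kidney groups set the members apart from each other. Values below are medians over the tables that hold a group, in the order SS/MCW LS at 7 weeks, SS/MCW LS at 10 weeks, SS/MCW HS, SS/CRL LS and SS/CRL HS. The authors' tables compared 5 of these pairs of groups, so other neighbours in an order have no test.

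Slc5a2 (chr1:206728634-206763393 on build rn5, gene model MSTRG.4590) was at 7.82, 9.74, 8.05, 65.2 and 14.7 FPKM. Its locus in the tables is shared with RGD1310127, a gene on the other strand, and reads of these genes may not be fully told apart. The SS/CRL LS group stood alone at the top, and the 3 SS/MCW groups lay within 2 FPKM of each other. Slc5a1 (chr14:83595064-83660489) was at 13.1, 7.46, 4.79, 3.92 and 2.88 FPKM. This order ran the other way, with the 7-week SS/MCW group highest and both SS/CRL groups lowest, and no neighbouring groups that were compared differed at the q threshold. Slc2a2 (chr2:134112904-134144457) was at 4.54, 8.06, 5.44, 10.5 and 11.8 FPKM, so the basolateral transporter was highest in both SS/CRL groups, whose difference did not pass.

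The enzymes were far more abundant per length than the transporters. Pck1 (chr3:177278782-177284731) was at 429, 667, 422, 360.4 and 1087 FPKM. Its highest group was SS/CRL HS and its lowest SS/CRL LS, with the SS/MCW groups between them. Fbp1 (chr17:391094-413246) was at 210.5, 393, 197, 909 and 568 FPKM, and Hnf4a (chr3:166127643-166155687) at 124, 239.7, 119, 672 and 342 FPKM. These genes, the bisphosphatase and the regulator, had the same order of groups, with SS/CRL LS highest, SS/CRL HS next and SS/MCW HS lowest.

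**Figure D1:**
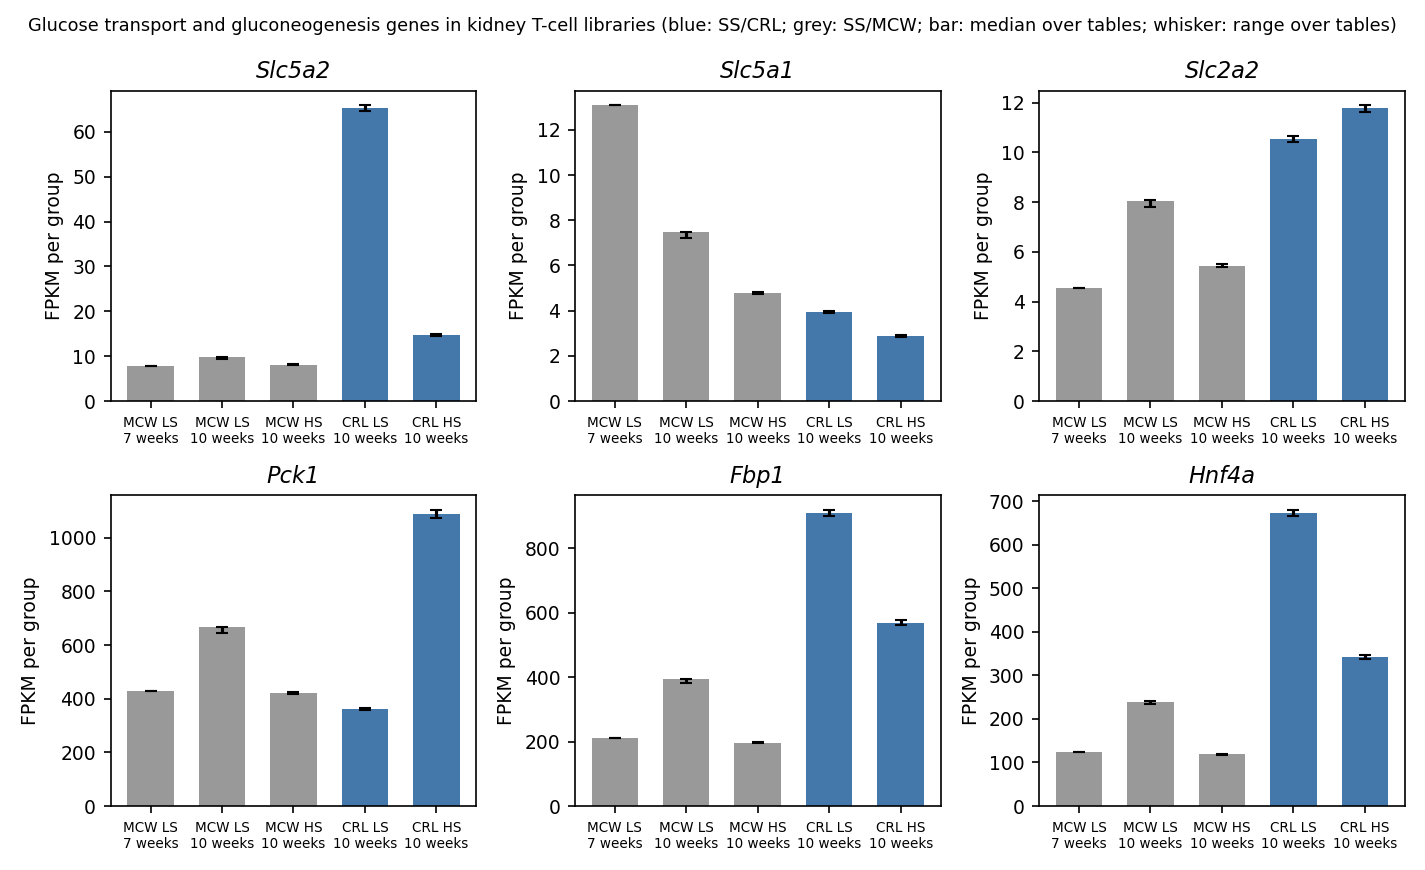
FPKM (vertical axis, linear from 0) of 6 genes in the 5 kidney T-cell groups; bars are medians over the tables holding a group and whiskers the range over those tables, which is a difference in scaling and not a spread among libraries. Slc5a2, Fbp1 and Hnf4a peak in SS/CRL LS, Pck1 peaks in SS/CRL HS at 1087 FPKM, and Slc5a1 is highest in SS/MCW LS at 7 weeks with 13.1 FPKM.

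The members' profiles over the 5 kidney groups were compared by the root mean square distance between log2 FPKM, each profile centred on its own mean. As a description of 5 points that share libraries, the nearest pair was Fbp1 and Hnf4a, 0.12 log2 units apart, and the farthest was Slc5a1 and Slc5a2, 1.67 apart. Pck1 lay 0.92 from Fbp1 and 0.55 from Slc2a2. The cotransporters of the early and late segments thus had the least alike profiles of the 6 genes.

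Among 10165 gene models with a symbol and at least 5 FPKM in the highest kidney group, those nearest to each member were named by the same distance. Nearest to Slc5a1 were Tmem116 at 0.17, Ppp1r14a at 0.19 and Wnk1 at 0.21, the last a kinase gene of renal salt transport. Nearest to Slc5a2 were CES2H at 0.12, Tmem125 at 0.15 and Glis1 at 0.17. CES2H, named as a carboxylesterase, was at 18.0 FPKM in SS/CRL LS and between 2.33 and 4.97 FPKM in the other kidney groups. Nearest to Slc2a2 were Id4 at 0.07, Nmrk1 at 0.08 and Aass at 0.08. Nearest to Pck1 were Cnbd2 at 0.13, Fam114a1 at 0.14 and Clock at 0.15, the last a transcription factor gene of the circadian clock. Clock was at 4.17, 5.803, 3.96, 2.64 and 8.74 FPKM, the same order of groups as for Pck1. Nearest to Fbp1 were Metrn at 0.04, Cmbl at 0.08 and Pdzk1 at 0.09. Pdzk1, an apical scaffold gene of the proximal tubule, was also nearest to Hnf4a at 0.07, ahead of Aspa and Sult1c2, both at 0.09.

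High salt was compared with low salt within each rat type to ask what the diet changed. In SS/CRL kidney libraries Pck1 rose and Slc5a2, Hnf4a and Fbp1 fell. Pck1 went from 364 to 1071 FPKM, 2.94-fold higher, a log2 difference of 1.56 (standard error 0.59 from the deposited statistic) with Cuffdiff q = 0.00171 in the authors' deposited table. Slc5a2 went from 65.9 to 14.5 FPKM, a log2 difference of -2.19 (standard error 0.97) with q = 0.00171. Hnf4a went from 679 to 338 FPKM (-1.01, q = 0.00954) and Fbp1 from 918 to 560.3 FPKM (-0.71, q = 0.0345), per the authors' deposited table. Pck1 and Fbp1, enzymes of the same pathway, therefore moved in opposite directions in the same libraries. Slc5a1 was at 3.96 and 2.84 FPKM (q = 0.645) and Slc2a2 at 10.6 and 11.6 FPKM (q = 0.860), neither past the threshold. Among all gene models tested, 2.44% were called higher and 3.07% lower, against 1 of 6 and 3 of 6 members. The Fbp1 call was lost at a q under 0.01, and none of these 4 calls remained with a normal p computed from the deposited test statistic, under which 17 of 19463 gene models passed. The authors' p called 1130 gene models here, so the normal p is the stricter scale. Which scale suits these data was not tested.

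Proximal tubule markers other than the members went the way of the members that fell, and Pck1 went the other way. Of 9 tested, 6 fell and none rose, their median log2 difference was -1.24, and their summed level went from 10900 to 5678 FPKM. Slc22a6, the organic anion transporter gene, went from 863 to 164 FPKM (q = 0.00171), and Slc34a1, the phosphate transporter gene, from 3387 to 773 FPKM (q = 0.110). Of 9 early-segment markers 7 fell, with a median of -1.26, while none of 5 late-segment markers was called and their median was -0.16. These lists are not separate from the values above. The early list holds the members Slc5a2, which fell, and Slc2a2, as well as Slc34a1, and the late list holds the member Slc5a1. Aqp1, the water channel gene of proximal tubule and thin limb, was at 1421 and 2545 FPKM (q = 0.336). It was the only 1 of the 9 markers that are not members with a log2 difference above 0. Relative to the marker median, an added comparison, the log2 difference was 2.80 for Pck1 and -0.94 for Slc5a2, while those of Fbp1 and Hnf4a turned to 0.53 and 0.24. The part of tubule content in the calls was not tested.

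In SS/MCW kidney libraries none of the 6 members was called, where 0.258% of all tested gene models were called higher and 0.175% lower. All 6 were lower on HS. Fbp1 was at 394 and 195 FPKM on LS and HS (q = 0.762) and Hnf4a at 241 and 118 FPKM (q = 0.997), log2 differences of -1.02 and -1.03. Pck1 was at 668 and 417 FPKM (q = 1.00) and Slc5a2 at 9.79 and 7.93 FPKM (q = 1.00), so Pck1 was lower on HS here and higher on HS in SS/CRL rats. Slc5a1 was at 7.49 and 4.73 FPKM and Slc2a2 at 8.09 and 5.37 FPKM, with q = 1.00 for both in the authors' deposited table. The proximal tubule markers other than the members had a median of -0.61 with none of 9 called. Of the early-segment markers only Slc6a19 was called, and it fell from 21.1 to 2.92 FPKM (q = 0.0179 in the authors' deposited table). The summed T cell markers were at 482 and 803 FPKM. The part of these in the members' values was not tested.

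The salt effects of both rat types were set against each other with a z test on the deposited log2 fold changes and statistics. For Pck1 the difference, SS/MCW minus SS/CRL, was -2.24 log2 units with a standard error of 1.43 and a 95% interval from -5.03 to 0.56. For Slc5a2 it was 1.88 with an interval from -2.25 to 6.02. Adjusted over all genes by Benjamini-Hochberg, no member passed this z test on Cuffdiff output, and 0 of 16429 gene models did, with 109 (0.663%) below 0.05 before adjustment. That share is well below the 0.05 that normal p-values give where nothing differs. Passing none therefore does not show that the salt effects were equal. Where the deposited p set the standard errors, 60 gene models passed, and the interval of Pck1 was -3.70 to -0.77 with an adjusted p of 0.222 in this z test. No member passed under either setting, and whether the interval of Pck1 holds 0 depends on which deposited value sets its standard error.

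**Figure D2:**
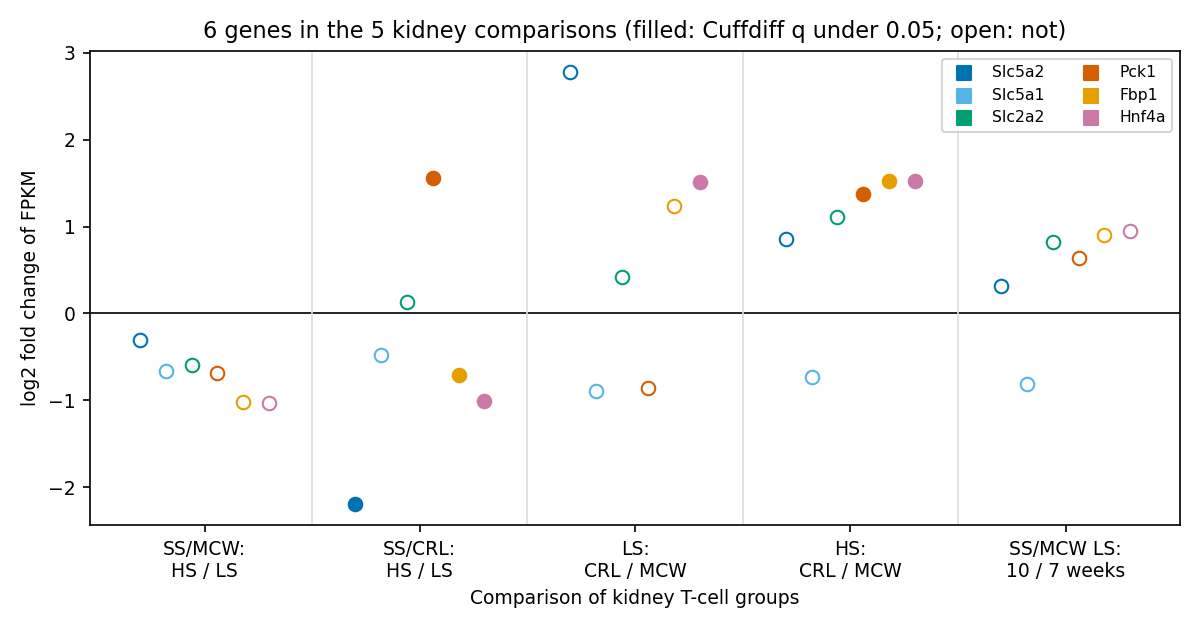
Log2 fold change of FPKM (vertical axis) of 6 genes in the 5 comparisons of kidney T-cell groups, 1 colour per gene; filled points passed the Cuffdiff q of 0.05 and open points did not. In SS/CRL rats on HS, Pck1 lies at 1.56 and Slc5a2 at -2.19, whereas in SS/MCW rats all 6 points lie below 0 and none is filled.

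Colonies were compared on each diet to ask how SS/CRL and SS/MCW rats differ at the same age. The comparisons share their groups with the salt comparisons and with each other through 4 kidney groups, and so are not independent of them. On LS, Hnf4a was higher in SS/CRL, at 666 against 234 FPKM (1.51 on the log2 scale, q = 0.0482 in the authors' deposited table), and was the 1 member of 6 called. Of all gene models tested, 1.36% were called higher and 0.444% lower in SS/CRL. Slc5a2 was at 64.5 against 9.44 FPKM, a ratio of 6.84, without passing the threshold (q = 0.275). Fbp1 was at 900.2 against 382 FPKM (q = 0.114), Slc2a2 at 10.4 against 7.80 FPKM (q = 0.766), Pck1 at 357 against 645 FPKM (q = 0.554) and Slc5a1 at 3.89 against 7.21 FPKM (q = 0.561). The late-segment transporter and Pck1 were thus the members with lower values in SS/CRL. The Hnf4a call was lost at a q under 0.01 and with a normal p of the deposited statistic.

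On HS, Fbp1, Hnf4a and Pck1 were higher in SS/CRL. Fbp1 was at 576 against 199.7 FPKM and Hnf4a at 347 against 121 FPKM, with log2 differences of 1.53 and q = 0.00149 for both in the authors' deposited table. Pck1 was at 1102 against 427 FPKM (1.37, q = 0.0258). The 3 called members compare with 2.75% of all tested gene models called higher and 2.97% lower. Slc2a2 was at 11.9 against 5.51 FPKM (q = 0.0653), Slc5a2 at 14.9 against 8.17 FPKM (q = 0.590) and Slc5a1 at 2.92 against 4.84 FPKM (q = 0.389). The Pck1 call was lost at a q under 0.01, and all 3 calls with a normal p of the deposited statistic.

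Markers moved with the colony as well. On LS the summed proximal tubule markers were at 10683 FPKM in SS/CRL against 4565 FPKM in SS/MCW, with 3 of 9 called higher and a median of 1.31 on the log2 scale. On HS they were at 5827 against 2852 FPKM, with 2 of 9 called higher and a median of 0.78. Of 10 T cell markers, 9 were called lower in SS/CRL on HS, where they summed to 223 against 830.3 FPKM. All 5 matched macrophage markers were called lower there as well, summing to 51.1 against 231 FPKM. Cd3e, which encodes the CD3 epsilon chain, was at 23.3 against 114 FPKM. The 4 markers of the thick ascending limb, Umod among them, summed to 1263 FPKM in SS/CRL and 4530.3 FPKM in SS/MCW on LS. Most of this sum was Umod, at 1049 against 3910 FPKM and not called (q = 0.617), and only Cldn16 was called there (q = 0.0414). How far these shifts enter the members' values was not tested.

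Age was compared in SS/MCW rats on LS. None of the 6 members was called between 7 and 10 weeks, where 0.774% of all tested gene models were called higher and 0.297% lower at 10 weeks. Fbp1 was at 210.5 and 393 FPKM (q = 0.256), Hnf4a at 124 and 239.7 FPKM (q = 0.408) and Pck1 at 429 and 667 FPKM (q = 0.864). Slc2a2 was at 4.54 and 8.06 FPKM (q = 0.533) and Slc5a2 at 7.82 and 9.74 FPKM (q = 0.976). Slc5a1 was the 1 member with a lower value at 10 weeks, 13.1 and 7.46 FPKM (q = 0.609). The summed proximal tubule markers other than the members were at 2524 and 4700.0 FPKM, with none of 9 called. Of the early-segment markers only Slc6a19 was called, at 2.80 FPKM at 7 weeks and 21.1 FPKM at 10 weeks (q = 0.0159 in the authors' deposited table).

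Read together, the median log2 difference of the 6 members was -0.67 for salt in SS/MCW, -0.60 for salt in SS/CRL, 0.83 for colony on LS, 1.24 for colony on HS and 0.73 for age. The medians of all tested gene models were -0.06, 0.05, -0.01, 0.12 and 0.09. The median of the proximal tubule markers was -0.61, -1.24, 1.31, 0.78 and 0.48 in the same comparisons. A factor that scales 2 genes alike cancels in their ratio. Whether tubule content scales Pck1 and Fbp1 alike was not tested, and the ratios below have no test. Pck1 over Fbp1 was 2.04, 1.69 and 2.14 in the SS/MCW groups, 0.397 in SS/CRL LS and 1.91 in SS/CRL HS. The SS/CRL LS group therefore stood apart in this ratio, and SS/CRL HS lay among the SS/MCW groups. Slc5a2 over Slc5a1 was 0.597, 1.31 and 1.68 in the SS/MCW groups, 16.6 in SS/CRL LS and 5.09 in SS/CRL HS, so early over late cotransporter was higher in both SS/CRL groups. These genes belong to different segments, so the content of a segment does not cancel in this ratio, and its part was not tested. Slc5a1 was at only 3.92 and 2.88 FPKM in SS/CRL LS and HS. Neither cotransporter was called in a colony comparison. Hnf4a over Fbp1 lay between 0.589 and 0.740 in all 5 groups.

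**Figure D3:**
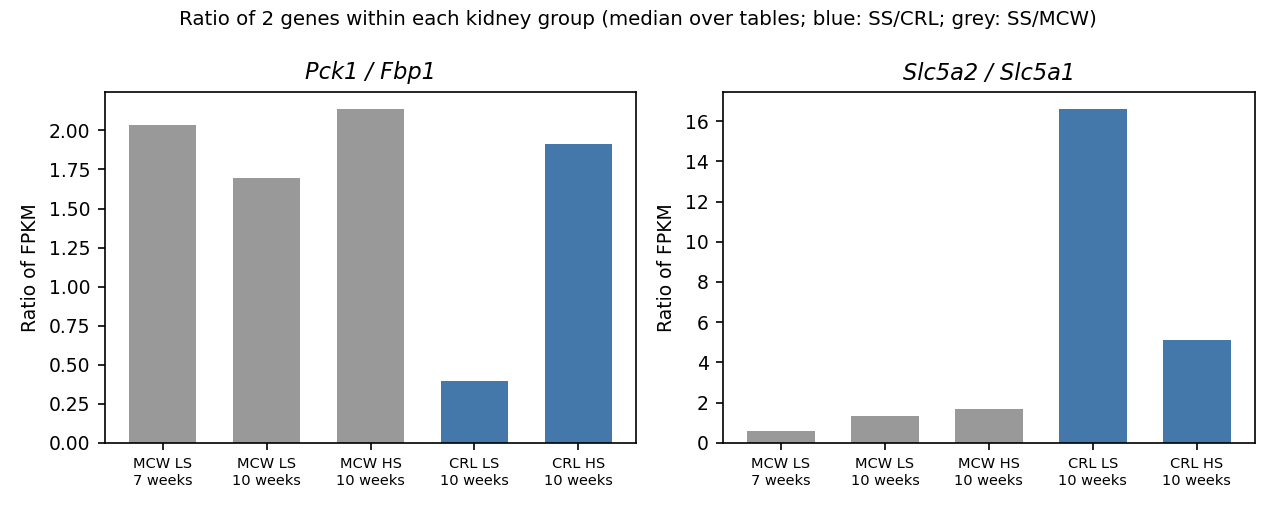
Ratio of FPKM (vertical axis, linear from 0) of Pck1 to Fbp1 and of Slc5a2 to Slc5a1 in the 5 kidney T-cell groups; bars are medians over the tables holding a group, without error bars because each table gives 1 value per group. Pck1 over Fbp1 is lowest in SS/CRL LS at 0.397, the group in which Slc5a2 over Slc5a1 is highest at 16.6.

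The wider pathway was described from lists of genes. Of 23 glucose transporter genes listed, 18 were matched and 15 were tested in SS/CRL HS against LS, where 3 fell and 1 rose, with a median of -0.30 on the log2 scale against 0.05 for all tested gene models. Beside Slc5a2, those that fell were Slc5a11, a myo-inositol and glucose cotransporter, from 30.1 to 8.23 FPKM (q = 0.00171), and Slc5a12, a lactate cotransporter, from 17.9 to 7.45 FPKM (q = 0.0147). Slc5a2 and Slc5a12 are also among the early-segment markers counted above. Slc2a1, the widely expressed GLUT1, rose from 29.9 to 51.5 FPKM (q = 0.0158), and its level in the SS/MCW groups lay between 46.7 and 57.8 FPKM. Slc5a10, a mannose and fructose cotransporter, was the most abundant Slc5 gene of the list in SS/CRL LS, at 72.6 FPKM, and was not called. None of the list was called in any other kidney comparison.

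Of 22 matched gluconeogenesis genes, most of which also serve glycolysis or the citrate cycle, all were tested in SS/CRL rats. On HS, 3 fell and 1 rose, with a median of -0.05. The rise was that of Pck1. Slc37a4, which carries glucose-6-phosphate to glucose-6-phosphatase, fell from 130.2 to 51.6 FPKM (q = 0.00171), and Pc, pyruvate carboxylase, fell from 109 to 56.9 FPKM (q = 0.00954), beside Fbp1. The log2 differences of Slc37a4 and Pc were -1.33 and -0.93, where the median of the proximal tubule markers was -1.24. Pck2, the mitochondrial paralog of Pck1, was at 23.1 and 23.0 FPKM (q = 0.995), and G6pc3, a widely expressed paralog of G6pc, at 38.4 and 38.5 FPKM (q = 0.996). On LS, Slc37a4 was higher in SS/CRL than in SS/MCW, at 128 against 45.0 FPKM (q = 0.00920), the 1 gene of 22 called. On HS the calls were Pck1 and Fbp1.

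Lists of neighbouring metabolism moved in part. Among 6 genes of fructose and polyol use tested in SS/CRL rats, Khk, ketohexokinase, fell on HS from 673 to 317 FPKM and Sord, sorbitol dehydrogenase, from 293 to 140.1 FPKM. Akr1b1, aldose reductase, rose from 39.0 to 76.8 FPKM, with q = 0.00171 for all 3 in the authors' deposited table. Of 10 genes of glutamine use and acid-base transport, 2 fell: Slc7a7, a cationic amino acid exchanger subunit, from 156 to 88.9 FPKM (q = 0.0147) and Slc4a4, the basolateral bicarbonate cotransporter, from 22.2 to 12.9 FPKM (q = 0.00321). Slc7a7 and Slc4a4 are also among the early-segment markers counted above, so these are not separate results. Slc38a3, a glutamine carrier of the proximal tubule, was at 23.0 and 14.3 FPKM (q = 0.355). The log2 differences of Khk and Sord were -1.08 and -1.06, also near the median of the proximal tubule markers, -1.24. The part of tubule content in these lists, and in the transporter and gluconeogenesis lists above, was not tested.

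Among regulators of the pathway other than Hnf4a, Ppargc1a, a coactivator, was at 17.1 and 23.2 FPKM on LS and HS in SS/CRL rats (q = 0.335). In SS/MCW rats Cebpb, a transcription factor gene, rose on HS from 74.1 to 190 FPKM (q = 0.0373). In these groups the macrophage markers, as medians over tables, summed to 134 FPKM on LS and 228 FPKM on HS, with none called. The part of cell content in the rise of Cebpb was not tested. None of 8 insulin signaling genes tested was called in SS/CRL rats on HS.

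**Figure D4:**
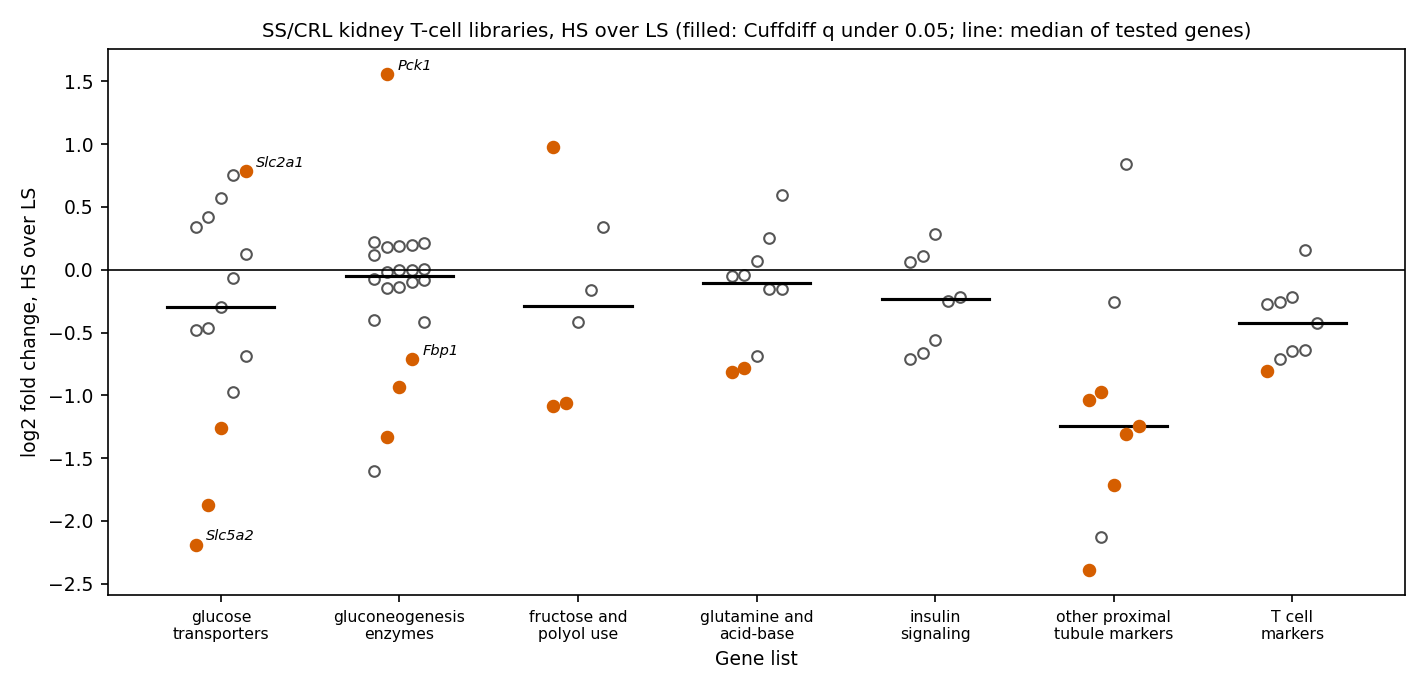
Log2 fold change of HS over LS (vertical axis) in SS/CRL kidney T-cell libraries for genes of 7 lists, 1 point per tested gene; filled points passed the Cuffdiff q of 0.05 and horizontal lines are list medians. Pck1 lies at 1.56 above a gluconeogenesis list whose median is -0.05, and the proximal tubule markers have a median of -1.24.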

How the data were processed

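RNA from circulating and kidney T cells was sequenced by the submitters in 40 libraries, 4 per group. Named in the submitters' processing notes are cutadapt, Trim Galore 0.2.5, TopHat, TopHat2 2.1.1, Cufflinks 2.2.1, Cuffdiff and build rn5. Whether strand was used in counting is not given in the sources used here. The deposited files are 15 Cuffdiff tables whose expression, per the file headers, is FPKM, 1 value per group. The deposited test statistic is a score per comparison, and the authors gave a p-value and q-value beside it. Tables were normalized separately, so tests stay within a table. Library depth and spread are unknown.

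Symbols were matched at commas, ignoring case. Log2 fold changes were computed from FPKM. A gene was called at q under 0.05 with status OK. Salt effects were compared by a z test with each standard error taken as log2 fold change over statistic. The simulated data on which it was run were normal draws with these same standard errors. They therefore cannot show whether these standard errors suit the deposited data. Alternatives were q under 0.01, a minimum of 1 FPKM, a normal p of the statistic with and without recentring on genes with at least 5 FPKM, a pseudocount of 1, values from the kidney against circulating tables and, chosen after seeing the data, changes relative to proximal tubule markers. The members and lists were chosen with earlier results of these data known.

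Named were the members, up to 6 called genes of a list in SS/CRL salt, else in the colony comparison on LS (largest change, at least 5 FPKM), set paralogs and markers, and the 3 nearest profiles per member. Slc5a10, Ppargc1a, Cebpb and the genes of the closing section that this rule does not reach were chosen after their values were seen. The series' design gives each library as a pool of rats and does not name the rats of a pool. Promoters are RefSeq's for GRCr8. One gene that this rule names, and the counts of its list, are not reported here. Scripts ran on Python 3.11.15 with numpy 2.4.6, pandas 2.3.3 and scipy 1.17.1, and figures on matplotlib 3.10.9.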

Additional observations from a re-analysis of the deposited data

How the results depend on the processing

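No paired analysis was possible because each table gives 1 value per group, so libraries could be neither matched by number nor left out. With a normal p of the deposited statistic, and likewise after recentring, the members called became 0 of 6 in the SS/CRL salt comparison (4 in the authors' tables), 0 in the colony comparison on LS (1) and 0 in that on HS (3). In kidney against circulating cells they became 1 in SS/MCW at 7 weeks, 0 in SS/MCW LS at 10 weeks and 1 in SS/MCW HS. In SS/CRL they became 2 on LS and 4 on HS. In all but SS/CRL HS this was in part because a group at 0 has no statistic. Slc5a1, not called in the authors' tables, was among the members in each of these but SS/MCW LS at 10 weeks, and Slc5a2 was in none. A q under 0.01 left 0 in the colony comparison on LS, 2 in that on HS (without Pck1), 3 in SS/CRL salt and 2 each in kidney against circulating cells of SS/MCW LS at 10 weeks and SS/CRL HS (all without Fbp1). In SS/MCW salt and in age the count stayed at 0 under these settings. Over all gene models, those called in SS/CRL salt went from 1130 to 17 with the normal p and to 752 at a q under 0.01, in SS/MCW salt from 84 to 6 and 0, in the colony comparisons from 326 to 5 and 196 on LS and from 1299 to 22 and 922 on HS, and in age from 202 to 7 and 96. The normal p thus called far fewer gene models than the deposited p, and which of these suits the data was not tested. Gene models passing the z test of salt effects went from 0 to 60 with standard errors from the deposited p. Log2 fold changes of the members kept their sign and stayed within 1.5-fold in 30 of 30 cases each with a pseudocount of 1, recentring, or values from the kidney against circulating tables. Relative to the proximal tubule markers 8 of 30 changed sign: 6 that were not called and 2 that were, in SS/CRL salt, Fbp1 to 0.53 and Hnf4a to 0.24. Library depth is unknown, so a detection limit cannot be given.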

Other observations

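Gene models beside the members bear on how the members can be read. Slc5a2 shares its locus in the tables with RGD1310127, a neighbouring gene on the opposite strand. RGD1310127 went from 330.6 to 81.4 FPKM in SS/CRL kidney libraries on HS (q = 0.00171 in the authors' deposited table) and was at 324 FPKM in SS/CRL against 52.9 FPKM in SS/MCW on LS (q = 0.00524). In circulating cells it lay between 15.4 and 19.6 FPKM, where Slc5a2 did not exceed 0.0983 FPKM. Whether reads of one were counted for the other is not known. G6pc is an older name of G6pc1 in the RefSeq table, and no gene model carried either name. The gene model named Psme3, at chr10:89034247-89109170 on rn5, shares a locus of 74924 bases with others, 5 gene models in all. RefSeq's order of neighbours places G6pc1 beside Psme3, and which reads that gene model holds is not known. Psme3 was at 277.6 and 172 FPKM on LS and HS in SS/CRL kidney libraries (q = 0.0450, called lower) and between 130.0 and 154 FPKM in circulating cells.

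Markers of other kidney cells in the SS/CRL salt comparison, the 1 with most member calls, moved in both directions. Of 5 endothelial markers 4 rose on HS, Esam from 71.2 to 125 FPKM and Cdh5 from 4.00 to 8.88 FPKM (q = 0.00171 and 0.00954 in the authors' deposited table). Aqp2, the water channel gene of the collecting duct, rose from 209 to 346 FPKM (q = 0.00839). It was the only 1 called of 6 distal tubule and collecting duct markers. Of the T cell markers only Lat was called, and it fell from 100.2 to 57.3 FPKM (q = 0.00954). Of 4 erythroid markers 3 fell, Hba1 from 1716 to 355 FPKM (q = 0.00171). Umod and the other 3 thick ascending limb markers were not called. The part of these shifts in the members' values was not tested.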
